A study of Mus musculus with 8 samples.

Results

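The genes described here are the 3 receptor activity-modifying proteins (RAMPs), Ramp1, Ramp2 and Ramp3, their partner receptor Calcrl, and 5 other receptors that couple to the stimulatory G protein Gs, namely Adrb1, Adora2a, Adora2b, Gipr and Vipr2. They were taken by symbol from the gene count matrix, in which each of the 9 had 1 entry among 47706 listed genes. Of the 9 genes, 8 were among the 16736 genes with enough counts to be tested, and Gipr was not. The series holds poly(A) RNA sequencing of 8 samples of primary mouse calvarial osteoblasts, 4 exposed to PTH for 24 hours and 4 to its vehicle.

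These cells build bone and were grown out from the skullcaps of neonatal mice. The methods describe differentiation in osteogenic medium and serum starvation on day 7 before the amino-terminal fragment of PTH was added, whereas the labels of both groups name adipogenic differentiation for 7 days. The samples' titles carry the prefix Con in both groups, which the labels do not explain, and the strain and genotype of these cultures are not given in the sources used here. The labels do not say whether samples came from separate animals or cultures, so p-values measure the spread between these samples, which may be technical. Total counts ranged from 33605610 to 56090654 in the PTH samples and from 41618108 to 46757836 in the vehicle samples. Tnfsf11, which encodes RANKL and is a known PTH target, was higher with PTH by 6.48 on the log2 scale. The summed level of 11 osteoblast markers ranged from 76721 to 87768 CPM (a gene's count relative to the total of its library) with vehicle and from 73291 to 106046 CPM with PTH, against 39.8 to 55.5 CPM and 34.8 to 54.9 CPM for 8 adipocyte markers. Nearly all of the osteoblast sum was Col1a1 and Col1a2, which did not pass the test. Of the 11 osteoblast markers none rose and 3 fell with PTH, Sp7 by log2 -1.78, Dmp1 by log2 -1.12 and Runx2 by log2 -0.33. Of the 7 adipocyte markers tested none rose and 1 fell, Pparg by log2 -1.50. Among all genes tested, 23.3% rose and 22.5% fell.

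Gs-coupled receptors activate adenylyl cyclase and raise cAMP when a ligand binds, and the PTH receptor itself uses this route in osteoblasts. RAMPs are single-pass membrane proteins that carry the receptor encoded by Calcrl to the cell surface and set which peptide it recognizes. With RAMP1 it forms a receptor for calcitonin gene-related peptide (CGRP), and with RAMP2 or RAMP3 it forms receptors for adrenomedullin.

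Of the 8 genes tested, 3 were upregulated by PTH (Ramp3, Adora2a and Vipr2), none was downregulated, and Ramp1, Ramp2, Calcrl, Adrb1 and Adora2b did not pass the test. Genes were called at an adjusted p under 0.05 in edgeR's quasi-likelihood test, under which 23.3% of all genes tested were upregulated and 22.5% were downregulated. Values of PTH and vehicle samples did not overlap for the same 3 genes, against 43.0% of all genes tested. The median log2 fold change was 0.50 over the 8 genes and -0.0008 over all genes tested. What set Ramp3 and Adora2a apart from the other members was the size of the change, described for each gene in turn.

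**Figure D1:**
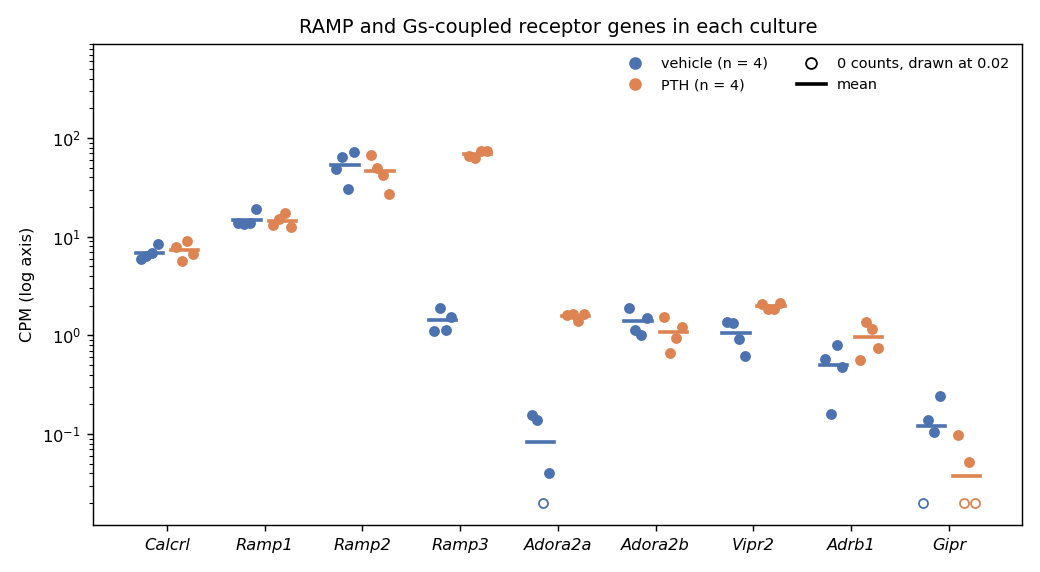
Level of each of the 9 genes in CPM (log axis) in the 4 vehicle and 4 PTH samples, with 1 point per sample and samples at 0 counts drawn at the foot of the axis. Ramp3 moved from between 1.12 and 1.91 CPM to between 63.3 and 74.3 CPM, Adora2a and Vipr2 also separated without overlap, and the points of the other genes overlapped between treatments.

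Ramp3 encodes the RAMP that forms an adrenomedullin receptor with the Calcrl product. It lies on the forward strand of chromosome 11 from 6658521 to 6677475 (GRCm38) and is listed as assembled locus MSTRG.2463. In the vehicle samples Ramp3 was at 1.12, 1.91, 1.13 and 1.53 CPM. In the PTH samples it was at 66.3, 63.3, 74.3 and 73.2 CPM. Every PTH sample was far above every vehicle sample, and the samples of each treatment lay close together. The mean rose from 1.42 ± 0.377 to 69.3 ± 5.32 CPM (SD, n = 4 each), on between 50 and 83 counts per vehicle sample and between 2105 and 3398 counts per PTH sample.

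The log2 fold change of Ramp3 was 5.61 (SE 0.148), a 48.8-fold difference with a 95% confidence interval of 39 to 61.1, with an edgeR adjusted p of 3.97e-11. The exact two-sided permutation test over the 8 samples gave p = 0.0286, the smallest that 4 against 4 samples allow. Leaving out each sample in turn gave log2 fold changes of 5.51 to 5.77. By log2 fold change Ramp3 ranked 50 among all genes tested. The opposite-strand pseudogene Gm11978 shares 94 exon bases with Ramp3 and had at most 5 counts in any sample. In bulk RNA, a change in the number of cells that express a gene and a change in RNA per cell cannot be told apart, here and for the genes that follow.

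The stretch of 250 bases before the RefSeq start of Ramp3 (GRCm38.p6, forward strand, chr11:6658283-6658532) is shown because Ramp3 had the smallest adjusted p among the members. The window searched also includes the 50 bases after the start, and it holds neither the full cAMP response element TGACGTCA nor its shorter form TGACG on either strand, so no letters are in capitals.
Ramp3: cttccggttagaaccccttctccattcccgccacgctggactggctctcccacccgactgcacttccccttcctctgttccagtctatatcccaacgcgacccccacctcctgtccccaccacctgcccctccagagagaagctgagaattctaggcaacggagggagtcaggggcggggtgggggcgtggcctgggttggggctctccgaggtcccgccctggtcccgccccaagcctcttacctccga
RefSeq windows of the same 300 bases were matched for 6 of the 9 genes (Ramp1, Ramp3, Calcrl, Adrb1, Adora2b and Vipr2). The full element was in none of the 6 and in 1.79% of the 32851 windows of the table. The shorter form, which the full element contains, was in the windows of Ramp1 and Adrb1 and in 20.8% of all windows. The stretches around these matches are shown, with the match in capitals. Ramp1 and Adrb1 did not pass the test, and the windows of Calcrl, Adora2b, Ramp3 and Vipr2 hold no match. Whether the element bears on the change with PTH was not tested. In Adrb1 (chr19:56722017-56722041, forward strand) the match begins 90 bases before the start. In Ramp1 (chr1:91179822-91179846, forward strand) it lies just after the start and reads on the reverse strand.
Adrb1: tgcgggagccTGACGcgcggccccg
Ramp1: ggaacccagcCGTCAgagcgaggtg

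Ramp1, the partner in the CGRP receptor, lies on the forward strand of chromosome 1 from 91179822 to 91225196 and is listed as MSTRG.669. Its levels were 13.7, 13.4, 13.8 and 18.9 CPM with vehicle and 13.1, 15, 17.5 and 12.7 CPM with PTH. The ranges of the treatments overlapped, with 1 high vehicle sample. The mean was 14.9 ± 2.66 CPM with vehicle and 14.6 ± 2.21 CPM with PTH (SD, n = 4 each). The log2 fold change of -0.03 had a 95% confidence interval of -0.33 to 0.26 (edgeR adjusted p = 0.857), so a change of the size seen in Ramp3 lies outside the interval.

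Ramp2, the other adrenomedullin receptor partner and a gene known from endothelium, lies on the forward strand of chromosome 11 from 101246028 to 101259546. The matrix lists it under MSTRG.3560, a locus that also holds Vps25, which encodes a subunit of the endosomal sorting complex. Ramp2 was at 48.7, 64.5, 30.6 and 72.2 CPM with vehicle and at 67.7, 49.9, 41.9 and 27.2 CPM with PTH. Samples of 1 treatment differed more from each other than the treatments did. The mean was 54.0 ± 18.4 CPM with vehicle and 46.7 ± 16.9 CPM with PTH (SD, n = 4 each), with a log2 fold change of -0.21 (95% confidence interval -0.81 to 0.39, edgeR adjusted p = 0.566).

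Vps25 varied in the opposite order. It was at 40.5, 31.4, 58.7 and 15.5 CPM with vehicle and at 14.7, 25.4, 42.8 and 49.1 CPM with PTH. In each treatment the sample with the highest Ramp2 had the lowest Vps25, and the Ramp2 share of the counts of both genes ran from 34.3% to 82.4% with vehicle and from 35.7% to 82.1% with PTH. The exons of both genes share 0 bases in the basic GENCODE annotation, while a blastn search of annotated transcripts found a match of 1103 bases between Ramp2 and Vps25 transcripts.

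The sum of both genes was much steadier than either of them. It was 89.2, 95.9, 89.3 and 87.7 CPM with vehicle and 82.4, 75.3, 84.7 and 76.4 CPM with PTH, without overlap. Its mean was 90.5 ± 3.66 CPM with vehicle and 79.7 ± 4.56 CPM with PTH (SD, n = 4 each). Fitted as 1 gene in an alternative chosen after the data were seen, the sum had a log2 fold change of -0.18 (SE 0.0631, 95% confidence interval -0.32 to -0.05, edgeR adjusted p = 0.0316). The counts do not tell which of both genes carries this difference, and the level of Ramp2 alone is uncertain in every sample.

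**Figure D2:**
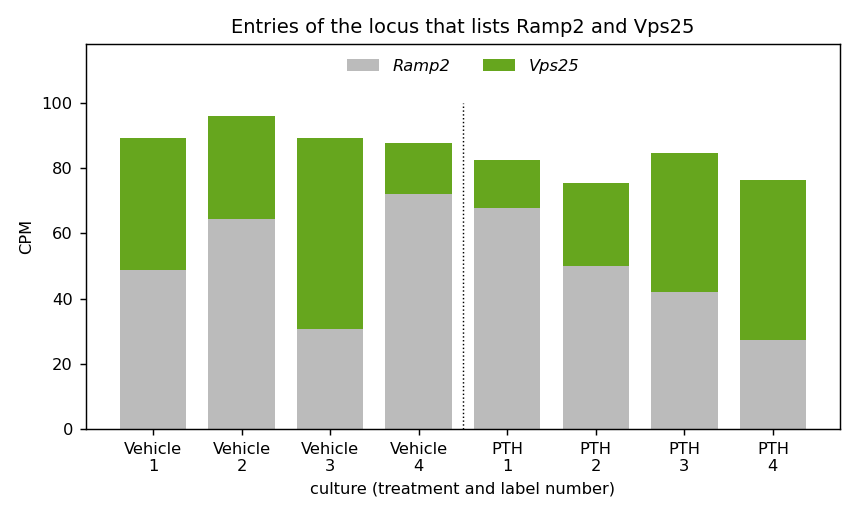
Ramp2 and Vps25 in CPM, stacked for each of the 8 samples of PTH and vehicle cultures on an axis that starts at 0. The split between both genes ranges widely within each treatment, while the summed height stays between 87.7 and 95.9 CPM with vehicle and between 75.3 and 84.7 CPM with PTH.

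Calcrl, the receptor that needs a RAMP at the cell surface, lies on the reverse strand of chromosome 2 from 84330626 to 84425411 and is listed as MSTRG.9843. It was at 5.89, 6.31, 6.88 and 8.47 CPM with vehicle and at 7.88, 5.63, 9.08 and 6.70 CPM with PTH. The treatments overlapped over most of their range. The mean was 6.89 ± 1.13 CPM with vehicle and 7.32 ± 1.49 CPM with PTH (SD, n = 4 each), with a log2 fold change of 0.09 (95% confidence interval -0.27 to 0.45, edgeR adjusted p = 0.693).

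Levels of different genes were compared as CPM per kilobase of annotated exon. With vehicle, Ramp2 was at 41.6 ± 14.2, Ramp1 at 4.94 ± 0.879 and Ramp3 at 1.15 ± 0.306 CPM per kb (SD, n = 4). With PTH, Ramp3 was at 56.2 ± 4.31, Ramp2 at 35.9 ± 13 and Ramp1 at 4.83 ± 0.730 CPM per kb. As counted, Ramp3 therefore went from the lowest of the 3 RAMPs in the vehicle samples to the highest in all 4 PTH samples. The ranges of Ramp3 and Ramp2 over the PTH samples overlapped, and the level of Ramp2 alone is uncertain.

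As a share of the 3 RAMPs per kb, Ramp3 made up 2.11%, 2.78%, 3.15% and 1.97% with vehicle. It made up 48.8%, 54.2%, 61.3% and 70.2% with PTH. The mean Ramp3 share went from 2.50 ± 0.557% to 58.6 ± 9.27% (SD, n = 4 each), a difference of 56.1 percentage points (exact two-sided permutation p = 0.0286). Shares of 1 total move together, and the mean Ramp2 share went from 86.5 ± 3.64% to 36.3 ± 9.71% and the mean Ramp1 share from 11.0 ± 3.31% to 5.02 ± 0.819%, each with the same permutation p. Without any 1 of the PTH samples the Ramp1 share missed the threshold (exact two-sided permutation p = 0.0571). With all counts of the shared locus given to Ramp2, the Ramp3 share was 1.51 ± 0.349% with vehicle and 45.9 ± 1.88% with PTH, so the mean Ramp3 share was then below that of Ramp2 with PTH (50.1 ± 1.75%), with overlapping ranges (44.2% to 48.5% against 48% to 52.2%). Ramp1 then went from 6.54 ± 1.24% to 3.95 ± 0.514%.

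**Figure D3:**
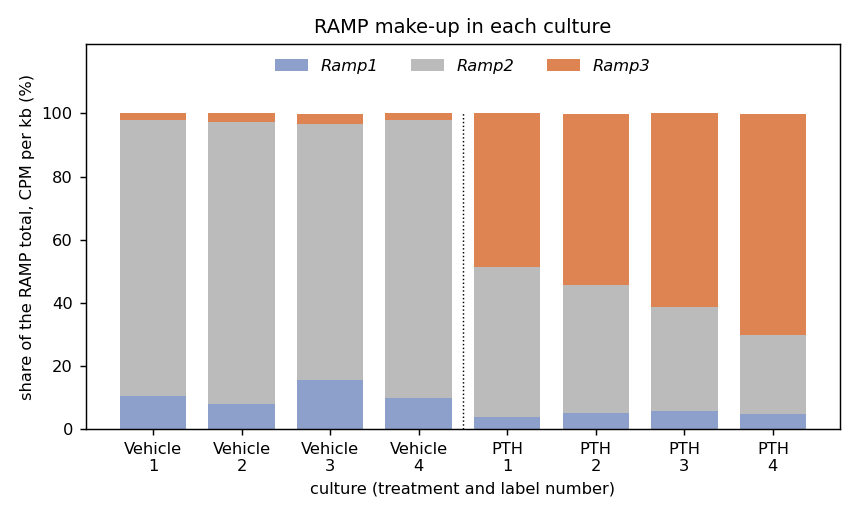
Share of Ramp1, Ramp2 and Ramp3 in their summed level (percent of CPM per kb), stacked for each of the 8 samples of PTH and vehicle cultures. Ramp3 takes at most 3.15% of the sum in the 4 vehicle samples and at least 48.8% in the 4 PTH samples.

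The summed RAMP level was 47.7 ± 15 CPM per kb with vehicle and 96.9 ± 10.6 CPM per kb with PTH (SD, n = 4 each; ranges 29.0 to 63.1 and 84.5 to 110; exact two-sided permutation p = 0.0286). Relative to Calcrl, the RAMP sum was 33.9 ± 9.47 with vehicle and 66.2 ± 12.4 with PTH. The sum and this ratio contain Ramp2, whose own level is uncertain in every sample. Neither was recomputed with all counts of the shared locus given to Ramp2. The ratio of Ramp3 to Calcrl per kb was 0.827 ± 0.249 with vehicle and 38.4 ± 6.42 with PTH. With vehicle the ranges of Calcrl and Ramp3 overlapped, and with PTH the ratio was at least 32.4 in every sample.

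Adora2a encodes the adenosine receptor with high affinity among the Gs-coupled pair, and it is well known from endothelium and leukocytes. It lies on the forward strand of chromosome 10 from 75316877 to 75334784 (ENSMUSG00000020178). In the vehicle samples it was at 0.156, 0.138, 0 and 0.0403 CPM, and in the PTH samples at 1.60, 1.65, 1.41 and 1.66 CPM. The gene was near or at 0 in every vehicle sample and low but present in every PTH sample. The counts were 0 to 7 per vehicle sample and 54 to 82 per PTH sample. The count of 0 in the third vehicle sample allows a level of up to 0.0626 CPM, by counting error only and if counts were independent reads.

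The mean of Adora2a rose from 0.0836 ± 0.0754 to 1.58 ± 0.118 CPM (SD, n = 4 each), with a log2 fold change of 4.23 (SE 0.58, 95% confidence interval 2.96 to 5.49, edgeR adjusted p = 9.10e-05). The exact two-sided permutation test gave p = 0.0286. Summed over samples, 15 vehicle counts stood against 261 PTH counts, a depth-adjusted ratio of 19.6 with a counting interval of 11.7 to 35.6. Without each sample in turn the log2 fold change was between 3.81 and 4.71.

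Adora2b encodes the low-affinity partner of that pair, and it lies on the forward strand of chromosome 11 from 62248984 to 62266453 (ENSMUSG00000018500). It was at 1.90, 1.13, 1 and 1.51 CPM with vehicle and at 1.54, 0.662, 0.940 and 1.21 CPM with PTH. The treatments overlapped. The mean was 1.38 ± 0.405 CPM with vehicle and 1.09 ± 0.376 CPM with PTH (SD, n = 4 each), with a log2 fold change of -0.33 (95% confidence interval -1.05 to 0.38, edgeR adjusted p = 0.436).

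Per kb, the Adora2a share of both adenosine receptors was 3.85 ± 3.6% with vehicle and 51.9 ± 8.98% with PTH (SD, n = 4 each; exact two-sided permutation p = 0.0286). In the vehicle samples nearly all of the summed level was Adora2b. In the PTH samples the 2 genes were at like levels, and Adora2a was the higher of both in 2 of 4 samples. The summed level itself was 0.782 ± 0.237 CPM per kb with vehicle and 1.20 ± 0.213 CPM per kb with PTH, with overlapping samples (exact two-sided permutation p = 0.0857).

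Vipr2 encodes a receptor shared by vasoactive intestinal peptide and PACAP. It lies on the forward strand of chromosome 12 from 116077726 to 116146261 (ENSMUSG00000011171). Its levels were 1.36, 1.35, 0.918 and 0.625 CPM with vehicle and 2.09, 1.87, 1.85 and 2.14 CPM with PTH. All PTH samples were above all vehicle samples, and the vehicle samples were the more spread. The mean rose from 1.06 ± 0.359 to 1.99 ± 0.148 CPM (SD, n = 4 each), with a log2 fold change of 0.90 (SE 0.281, 95% confidence interval 0.29 to 1.52, edgeR adjusted p = 0.0199; exact two-sided permutation p = 0.0286). Without vehicle replicate 3 the log2 fold change was 0.84 and the call was lost (adjusted p = 0.0557). The antisense gene Gm20658 shares no exon bases with Vipr2.

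Adrb1 encodes the beta-adrenergic receptor that is best known from the heart. It lies on the forward strand of chromosome 19 from 56722199 to 56733113 (ENSMUSG00000035283). It was at 0.580, 0.161, 0.793 and 0.484 CPM with vehicle and at 0.566, 1.38, 1.15 and 0.737 CPM with PTH. The treatments overlapped, with 2 PTH samples above all vehicle samples. The mean was 0.504 ± 0.263 CPM with vehicle and 0.959 ± 0.374 CPM with PTH (SD, n = 4 each). The log2 fold change of 0.91 was of the size seen in Vipr2, but with a 95% confidence interval of -0.12 to 1.94 it did not pass the test (edgeR adjusted p = 0.138; exact two-sided permutation p = 0.143). With counts thinned to the smallest library it was called, at a log2 fold change of 1.19 (adjusted p = 0.0365).

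Gipr encodes the receptor for the gut hormone GIP. It lies on the reverse strand of chromosome 7 from 19156061 to 19166127 (ENSMUSG00000030406). It had 0, 6, 5 and 12 counts with vehicle and 5, 0, 2 and 0 counts with PTH, too few to be tested. With no filter on low counts its log2 fold change was -1.60 (edgeR adjusted p = 0.392), so a difference was not detectable at this depth.

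**Figure D4:**
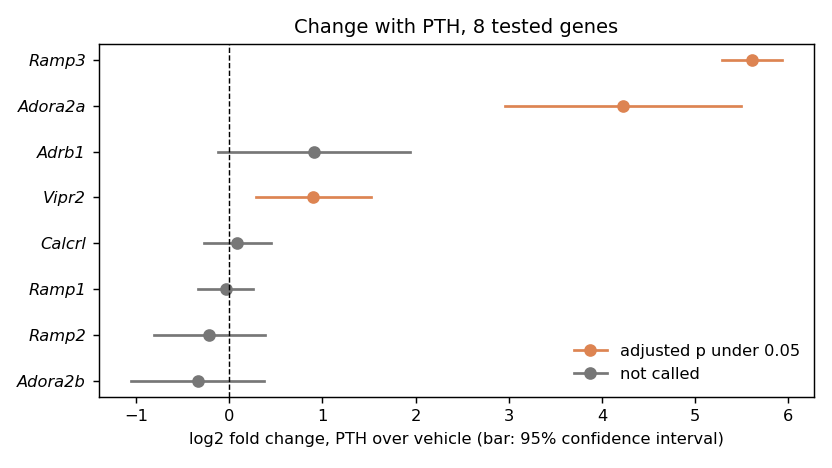
Log2 fold change of PTH against vehicle for the 8 genes tested, with 95% confidence intervals from edgeR (n = 4 samples each). The intervals of Ramp3 (5.29 to 5.93), Adora2a (2.96 to 5.49) and Vipr2 (0.29 to 1.52) lie above 0, and those of the other 5 genes include 0.

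In the vehicle samples the order of the 9 genes per kb was Ramp2, Ramp1, Calcrl, Ramp3, Adora2b, Vipr2, Adrb1, Gipr and Adora2a. Neighbours with overlapping ranges were Calcrl and Ramp3, Ramp3 and Adora2b, and all pairs from Vipr2 onward. In the PTH samples the order was Ramp3, Ramp2, Ramp1, Calcrl, Adora2a, Adora2b, Vipr2, Adrb1 and Gipr. Ranges overlapped between Ramp3 and Ramp2, Adora2a and Adora2b, and Adora2b and Vipr2. The place of Ramp2 rests on its own uncertain counts. With all counts of the locus shared with Vps25 given to Ramp2, its mean RAMP share with PTH (50.1%) was above that of Ramp3 (45.9%). Adora2a thus stood last with vehicle and after Calcrl with PTH, at 0.609 ± 0.0456 CPM per kb (SD, n = 4).

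A further list of 16 genes held peptide ligands of these receptors, Crcp, and enzymes and transporters of extracellular adenosine. It mixes genes of different roles, so its counts and median are not a measure of ligand supply. Of these, 12 were tested, 3 were upregulated, 5 were downregulated and 4 did not pass, with a median log2 fold change of -0.28 over the 12. Over all genes tested, 23.3% were upregulated and 22.5% downregulated. The genes that rose were Calca, Calcb and Entpd1, and those that fell were Adm, Crcp, Nt5e, Slc29a1 and Slc29a2.

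Calca, which encodes alpha-CGRP and, by alternative splicing, calcitonin, was at 3.01, 2.34, 1.82 and 1.53 CPM with vehicle and at 8.35, 17.4, 14.2 and 13.5 CPM with PTH. The treatments were well apart, and the log2 fold change was 2.62 (SE 0.249, edgeR adjusted p = 4e-06). Counts per gene do not tell CGRP from calcitonin transcripts. Calcb, which encodes beta-CGRP, was at 0.245, 0.115, 0 and 0.282 CPM with vehicle and at 6.38, 5.69, 9.06 and 5.87 CPM with PTH, near 0 in the former and well above it in the latter. Its log2 fold change was 5.36 (SE 0.46, edgeR adjusted p = 1.60e-06), and the 30 vehicle against 1110 PTH counts give a ratio of 41.7 (counting interval 29.1 to 62.1). Crcp, which encodes a component of the CGRP receptor that is also an RNA polymerase III subunit, fell from 17.4 ± 1.45 to 13.6 ± 0.936 CPM (log2 fold change -0.36, edgeR adjusted p = 0.00678).

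Adm, which encodes adrenomedullin, was at 14.4, 15, 14.2 and 14.5 CPM with vehicle and at 1.68, 1.32, 2.01 and 1.47 CPM with PTH. It fell in every PTH sample to a small part of its vehicle level, with a log2 fold change of -3.16 (SE 0.136, edgeR adjusted p = 3.02e-09). Adm thus fell in the same samples in which Ramp3, a partner in an adrenomedullin receptor, rose. Vip, which encodes a ligand of the Vipr2 product, had 0 to 7 counts with vehicle and 7 to 18 counts with PTH and was not tested. Adcyap1, which encodes PACAP, was at 1.59 ± 0.430 CPM with vehicle and 1.06 ± 0.326 CPM with PTH (log2 fold change -0.58, edgeR adjusted p = 0.154). Gip, the ligand gene for Gipr, was at 0 counts in all samples.

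Among the adenosine genes, Nt5e, which encodes the ectoenzyme that forms adenosine from AMP, fell from 22.7 ± 2.12 to 15.6 ± 3.05 CPM (log2 fold change -0.54, edgeR adjusted p = 0.00477). The nucleoside transporter genes Slc29a1 and Slc29a2 fell, with log2 fold changes of -0.36 (edgeR adjusted p = 0.00263) and -1.17 (edgeR adjusted p = 0.00108). Entpd1, which encodes an ectoenzyme that acts upstream of Nt5e on ATP and ADP, had a log2 fold change of 0.32 (edgeR adjusted p = 0.0366) with overlapping samples. The Entpd1 call held under 8 of 16 alternatives, and was lost without PTH replicate 1 or 4 or vehicle replicate 1, 2 or 3, with adjusted p-values of 0.0732 to 0.113.

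**Figure D5:**
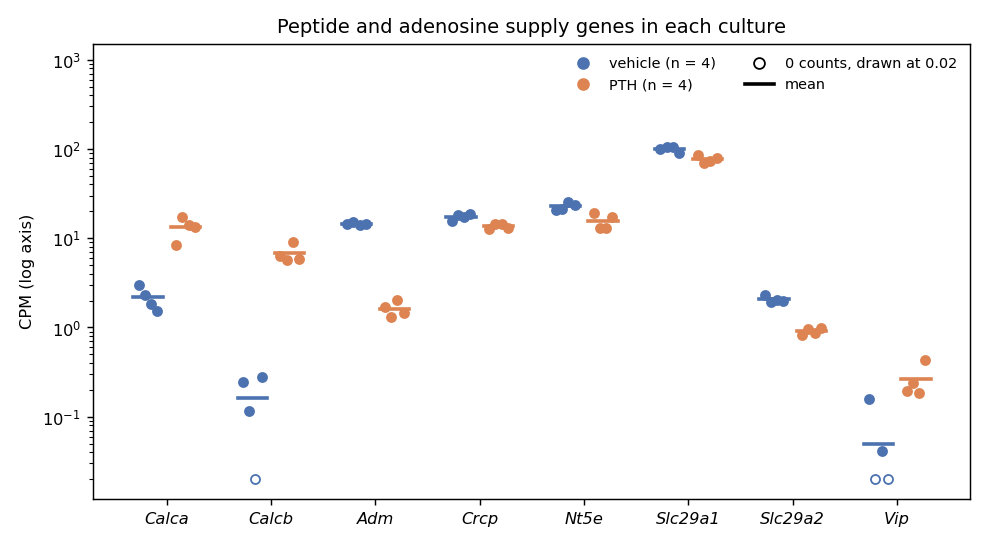
Levels of Calca, Calcb, Adm, Crcp, Nt5e, Slc29a1, Slc29a2 and Vip in CPM (log axis) in the 4 vehicle and 4 PTH samples. Each point is 1 sample, and samples at 0 counts are drawn at the foot of the axis. Genes of the list whose samples overlapped between treatments, such as Entpd1, Ada and Adk, are not drawn. Calca and Calcb lie higher and Adm lower in every PTH sample than in every vehicle sample.

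A list of 44 further Gs-coupled receptor genes placed the members among their relatives. Of these 44, 18 were tested, 5 were upregulated, 2 were downregulated and 11 did not pass, and 8 were at 0 counts in all samples. The upward count is near the 23.3% upregulated over all genes tested, of which 22.5% were downregulated. The median log2 fold change was 0.33 over the 18. Of the 4 prostaglandin receptor genes in the list, Ptger4 and Ptgir rose, while Ptger2 had a log2 fold change of -0.06 (edgeR adjusted p = 0.892) and Ptgdr one of -0.42 (edgeR adjusted p = 0.694).

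Ptger4, which encodes a receptor for prostaglandin E, rose from 9.95 ± 1 to 29.8 ± 3.61 CPM (log2 fold change 1.58, edgeR adjusted p = 1.80e-07). The blastn search found a match of 874 bases between Ptger4 and Gm15937 transcripts, and whether it bears on the counts was not tested. Ptgir, the prostacyclin receptor gene, rose by 0.95 on the log2 scale (edgeR adjusted p = 4.26e-04). Gpr3, a constitutively active receptor gene, had 4 counts summed over the vehicle samples and 651 over the PTH samples, a ratio of 184 (counting interval 71.3 to 676; edgeR adjusted p = 1.08e-07). Like Adora2a, it was near 0 with vehicle. Htr6, a serotonin receptor gene, had 2 and 71 counts (ratio 40.0, counting interval 10.7 to 337; log2 fold change 5.02, edgeR adjusted p = 2.43e-04). Both vehicle counts of Htr6 were in vehicle replicate 4, without which its log2 fold change was at its highest among the fits with 1 sample left out, at 7.24 and against vehicle samples that were all at 0, and with counts thinned it was not tested. Vipr1, which encodes the sister receptor of Vipr2, had a log2 fold change of 1.53 on 4 to 19 counts per vehicle sample and 13 to 36 per PTH sample (edgeR adjusted p = 0.0231), and its call was lost without PTH replicate 3 or 4 or vehicle replicate 1, 2 or 3 (adjusted p-values of 0.0559 to 0.0789).

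Pth1r, the receptor gene for PTH itself, fell from 136 ± 21.1 to 83.6 ± 11.6 CPM (log2 fold change -0.70, edgeR adjusted p = 4.43e-04). Calcr, the calcitonin receptor gene whose product also pairs with RAMPs, was at 0 counts in all vehicle samples and at 0 to 3 counts in the PTH samples, so Calcrl was the only one of both receptor genes above a trace.

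Among the 50 receptor genes of both lists, ranked per kb, Pth1r was first in both treatments, with 81.3% of the summed level with vehicle and 59.4% with PTH. Calcrl ranked 4 with vehicle and 5 with PTH, Adora2b 6 and 9, Vipr2 10 and 10, and Adrb1 12 and 13. Adora2a moved from rank 25 to rank 8 and from 0.0579% to 1.23% of the sum. The 6 members in this ranking were thus minor next to Pth1r in both treatments.

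Several members are also known from other cell types, whose marker genes were measured in the same samples. Of 10 endothelial markers, Emcn was at 0 in all samples and 7 (Emcn, Pecam1, Cdh5, Tie1, Vwf, Esam and Cldn5) were under 1 CPM in every sample. The summed level of the 10 ranged from 23.3 to 24.6 CPM with vehicle and from 30.4 to 50.9 CPM with PTH (exact two-sided permutation p = 0.0286). Most of that sum was Erg. Among the 7 that were tested, Kdr and Erg rose and Tek fell. Ramp3 was above the endothelial sum in each PTH sample, but levels in bulk RNA do not tell which cells hold Ramp3 RNA. The summed level of 10 macrophage markers ranged from 1049 to 1700 CPM with vehicle and from 1645 to 2125 CPM with PTH (exact two-sided permutation p = 0.0571). Lyz2 made up most of the macrophage sum. No macrophage marker was at 0, all 10 were tested, and Cd14, Lyz2 and Tyrobp rose. Among all genes tested, 23.3% were upregulated and 22.5% were downregulated. The part of macrophages or endothelial cells in the levels of Ramp3 and Adora2a was not tested.

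As a description over the 8 samples, the genes whose log2 CPM was most like that of Ramp3 were Pop4 (Pearson r = 0.9989) and Apold1 (r = 0.9987) among the 14070 genes that averaged 1 CPM or more, and 1112 genes had r over 0.95 with Ramp3. For Adora2a the closest were Gm5940 (r = 0.9934) and Prosc (r = 0.9927), with 399 genes over 0.95. For Vipr2 they were Fam222a (r = 0.9871) and Lamb1 (r = 0.9761), with 18 genes over 0.95. These samples share 2 treatments, so any gene that separates the treatments strongly has a high r.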

How the data were processed

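RNA from 4 PTH-treated and 4 vehicle-treated osteoblast samples was analysed, grouped by the labels. The authors prepared poly(A) libraries, used HISAT2 for alignment to GRCm38 and StringTie2 for assembly of transcripts, and deposited unnormalized gene counts, which StringTie2's companion script derives from transcript coverage and an assumed read length. The read length set, annotation version and strand setting are not given in the sources used here. Such counts can be split between genes of 1 assembled locus, and a wrong read length scales all counts alike.

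PTH was compared with vehicle over the whole table with edgeR 4.0.16 in R 4.3.3 (filterByExpr at its minimum of 10 counts and minimum total of 15, TMM normalization, quasi-likelihood F-test, Benjamini-Hochberg adjustment over 16736 genes, called at 0.05, no minimum fold). CPM used TMM-normalized library sizes, and CPM per kb the union of exons in GENCODE M21. Single genes were also compared by two-sided exact permutation tests on log2(CPM + 0.1), with 70 assignments and a smallest p of 0.0286. Counting intervals (95%) and the floor of 3 counts cover counting error only. They take counts as independent reads, which counts derived from coverage need not be, and may then be too narrow. Similar sequences were sought with blastn 2.17.0, and SciPy 1.17.1, pandas 2.3.3 and NumPy 2.4.6 in Python 3.11.15 and matplotlib 3.10.9 were used. The fit was also run on simulated counts with known changes and a fixed dispersion, as a check of the code, and no result here rests on it.

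The 9 genes and the lists were chosen with earlier results of these data known. The rule named every member, the called genes of each list with the largest and smallest change or called at 5 or fewer, Calcr, Pth1r, Crcp, Adm, Calca and Nt5e, the 2 genes most like each of the 3 members with the smallest adjusted p, and markers at 0. The values of 1 gene that the rule also named are not reported here. Adcyap1, Vip, Gip, Ptger2, Ptgdr, Pparg and the osteoblast markers were named after their values were seen. Markers of adipocytes, pericytes, chondrocytes and osteoclasts were also listed. The 16 alternatives were DESeq2 1.42.0, its size factors in edgeR, no filter, a replicate block, leaving out each sample, counts halved, counts summed by symbol, counts thinned to the smallest library, and, chosen after the data were seen, Ramp2 and Vps25 summed. The authors used DESeq2. No sample was left out, and no pair of samples agreed within sampling noise. Protein sequences were not used here.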

Additional observations from a re-analysis of the deposited data

Results flagged for a closer look

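Ramp1 in vehicle replicate 4 was at 18.9 CPM, far above the other vehicle samples, which lay between 13.4 and 13.8 CPM. Its gap to the nearest sample passed Dixon's 95% limit for 4 samples. It was the single sample marked among 16 groups of 4 examined, and chance marks about 1 in 20 groups.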

How the results depend on the processing

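Ramp3 and Adora2a were upregulated under all 16 alternatives and Vipr2 under 15, so that 2 to 3 members were upregulated when each sample was left out in turn. Adrb1 made it 4 with counts thinned. With Ramp2 and Vps25 summed, 1 member locus was downregulated. Without 1 sample, the log2 fold change of Ramp1 lay between -0.14 and 0.10 and that of Calcrl between -0.03 and 0.20, neither passing the test, and the difference in Ramp1 share lay between -7.04 and -4.46 percentage points, against -6.02 with all samples, -2.59 with Ramp2 and Vps25 summed and -11 without division by length. Among other Gs receptors, 3 were upregulated with counts halved, since Htr6 and Vipr1 then had too few counts to be tested, and 1 to 2 were downregulated without 1 sample. Samples of the same number did not deviate together (correlations of -0.0409 to 0.0274), and the labels do not say whether the number pairs them. A replicate block left 3 members upregulated and 0 downregulated, and 3571 genes up and 3432 down of all tested, against 3907 and 3762 without it. Depth limits Gipr, Adora2a with vehicle and the other genes with few counts.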

Other observations

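Markers of cell types not weighed above were also summed in each sample. For 6 pericyte and smooth muscle markers the sum was 73.9 to 80.2 CPM with vehicle and 69.2 to 73.3 CPM with PTH. The exact two-sided permutation test of this sum gave p = 0.0286, and none of the 6 genes passed the edgeR test. For 4 chondrocyte markers the sum was 248 to 260 CPM with vehicle and 294 to 398 CPM with PTH (exact two-sided permutation p = 0.0286). Most of it was Col2a1, at 223 to 231 CPM with vehicle and 258 to 354 CPM with PTH. Of the 3 chondrocyte markers tested, Col2a1 and Acan rose and Col9a1 did not pass, and Matn1 was not tested. Among all genes tested, 23.3% were upregulated and 22.5% were downregulated. For 5 osteoclast markers the sum was 414 to 518 CPM with vehicle and 403 to 580 CPM with PTH, with overlapping ranges. Of these 5, 4 were tested and none passed, and Calcr, Ocstamp and Oscar were under 1 CPM in every sample.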
